A study of Mus musculus with 16 samples.

Results

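The 9 genes described here were listed as markers of resident macrophages of the dermis: Adgre1, Cd163, Folr2, Pf4, C1qa, C1qb, C1qc, Cd68 and Timd4. Not all are particular to these cells. They were chosen by symbol, and all 9 were found among the 55487 genes of the count table. RNA sequencing was done on sorted cells of mouse skin, 6 h after hypobaric pressure had stretched the tissue, or on unstretched skin of the same area. Cells were sorted on CD45, the surface protein of leukocytes encoded by Ptprc, into a CD45+ fraction, called immune here, and a CD45- fraction, called stromal. The 16 libraries form 4 groups of 4: immune stretched (numbered 1, 2, 7 and 8 by the submitters), immune control (3, 4, 5 and 6), stromal stretched (5 to 8) and stromal control (1 to 4). The labels name no strain, age, sex, allele or agent other than pressure, and do not say whether the libraries of a group came from separate mice, so p-values cover the spread of these libraries and no more, and that spread may be technical.

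Resident dermal macrophages settle in connective tissue, where they take up dying cells, iron-bearing proteins and debris, and release mediators. C1qa, C1qb and C1qc encode the chains of C1q, the recognition subunit of the classical complement pathway, which binds antibody complexes and dying cells and works with the proteases C1r and C1s. Most complement proteins come from the liver, whereas macrophages are a main source of C1q. Cd163 encodes a scavenger receptor for haemoglobin bound to haptoglobin, Folr2 the folate receptor beta, Timd4 a receptor for phosphatidylserine on dying cells, and Adgre1 the surface protein F4/80. Cd68 encodes a glycoprotein of lysosomes and endosomes that other myeloid cells also make. Pf4 encodes the chemokine CXCL4, known best from platelets and also made by some tissue macrophages.

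Libraries held 7018743 to 20095580 counts in the immune stretched group and 2645421 to 6662268 in the immune control group, and 21955174 to 26944965 in the stromal stretched group and 13563586 to 20467010 in the stromal control group. In each fraction every stretched library was deeper than every control library, so depth and stretch cannot be told apart by design. Levels are given as CPM, read counts brought to a common library size, with TMM factors computed within each fraction. A count of 3 reads equals 0.149 to 0.427 CPM of the library total in immune stretched libraries, 0.450 to 1.13 CPM in immune control libraries, 0.111 to 0.137 CPM in stromal stretched libraries and 0.147 to 0.221 CPM in stromal control libraries. Ptprc averaged 482 ± 161 CPM in immune stretched and 439 ± 172 CPM in immune control libraries, against 1.65 ± 1.21 CPM in stromal stretched and 0.532 ± 0.562 CPM in stromal control libraries (SD, n = 4 each). Immune stretched 2 stood apart by its neutrophil genes, whose 12 members summed to 33342 CPM against a group median of 524 CPM. Immune control 4, stromal stretched 7 and stromal stretched 8 stood apart by a raised share of reads on sensory receptor genes (olfactory and vomeronasal). This share was 6209 CPM in immune control 4, against 55.2 to 69.9 CPM in the other immune control libraries. It was 424 CPM in stromal stretched 7 and 208 CPM in stromal stretched 8, against 20.6 and 23.7 CPM in stromal stretched 5 and 6. Immune control 4 was also the shallowest library, with 35303 genes detected, against 20429 to 22532 in the other immune control libraries. Results are given with and without the libraries that stood apart, where that ends a call or turns a direction.

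All 9 genes were much higher in the immune than in the stromal fraction. In stretched skin 9 of 9 were called higher in edgeR's quasi-likelihood test with Benjamini-Hochberg adjustment, where 23.9% of the 17116 genes tested were called higher. In control skin 8 of the 8 tested were called higher, against 26.6% of 15142 genes, and Folr2 was too low to be tested. The median log2 fold change over the members was 7.51 in stretched skin and 6.64 in control skin. Folr2 and Timd4 did not pass the expression filter among the stromal libraries alone. They entered these comparisons through the immune libraries, where they were high, so only a higher call was possible for them. The counts of calls are therefore no separate evidence for such members, and the shares over all genes are no chance rates. By level, every member that could be tested stood on the CD45+ side of the sort, where macrophages belong.

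In stretched skin the log2 fold change of immune over stromal cells ran from 6.32 ± 0.80 for Folr2 (SE, adjusted p = 0.000210) to 8.13 ± 0.81 for Pf4 (adjusted p = 4.38e-05). In control skin it ran from 6.05 ± 0.56 for Cd68 (adjusted p = 1.41e-05) to 8.47 ± 0.63 for Pf4 (adjusted p = 4.73e-06). The same test gave Ptprc, the gene of the sorted protein, a log2 fold change of 8.10 in stretched skin and 9.68 in control skin. Stromal means, each scaled within its own fraction, were 0.350% (Pf4) to 1.18% (Folr2) of the immune mean in stretched skin and 0.288% (Pf4) to 1.74% (Folr2) in control skin. For Ptprc this share was 0.343% in stretched skin and 0.121% in control skin. The stromal values of the rarest members rest on few reads: Folr2 had 8 reads over the 4 stromal stretched libraries and 5 over the 4 stromal control libraries, and Timd4 had 18 over the stromal stretched and 9 over the stromal control libraries.

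**Figure D1:**
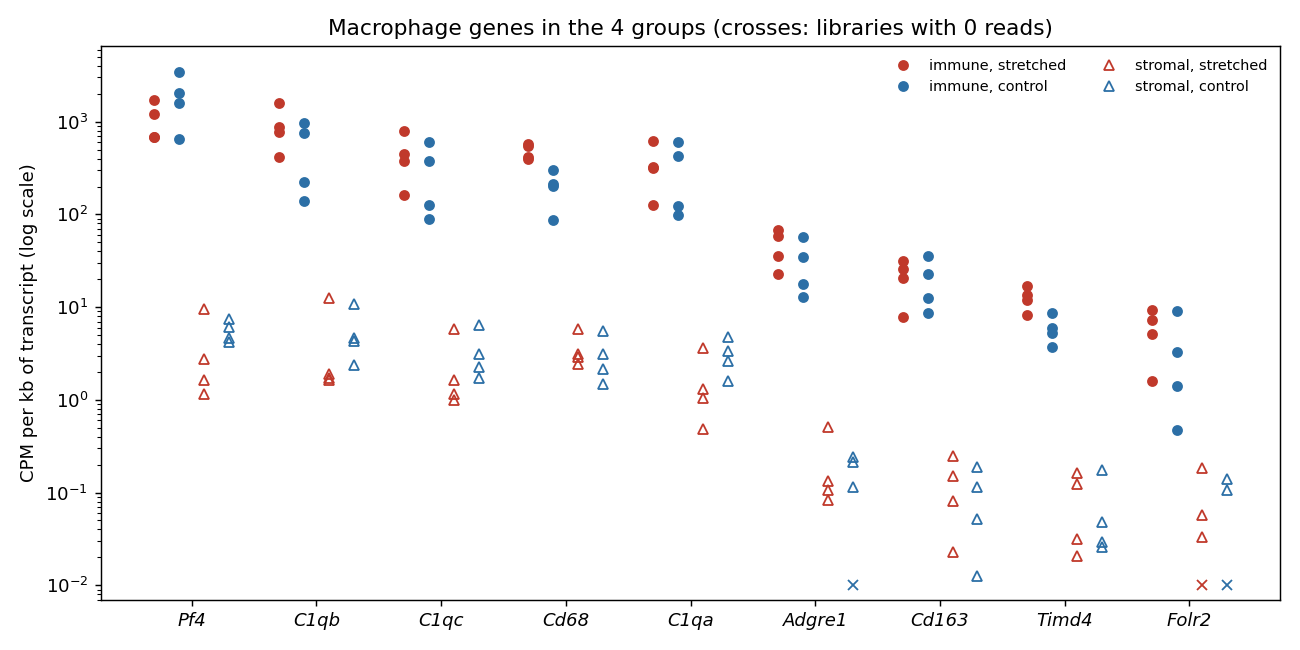
CPM per kb of transcript of each of the 9 genes in the 4 groups, on a log axis; each point is 1 library, circles are immune and open triangles stromal, and crosses at the foot mark libraries with 0 reads. For every gene the immune points lie above the stromal points, while stretched and control points of a fraction overlap, except for Cd68 in the immune fraction.

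Per kilobase of the longest annotated transcript, Pf4 had the highest mean level of the 9 genes in the immune fraction, at 1076 CPM per kb in stretched and 1938 CPM per kb in control libraries. C1qb followed at 919.5 CPM per kb in stretched and 521 CPM per kb in control libraries. In immune stretched libraries Cd68 (482 CPM per kb), C1qc (444) and C1qa (345) came next, and their spreads overlapped. In immune control libraries the next were C1qa (313 CPM per kb), C1qc (297.5) and Cd68 (201), also within their spreads. Adgre1, Cd163, Timd4 and Folr2 were the 4 lowest in both groups, at 46.2, 21.4, 12.6 and 5.83 CPM per kb in stretched libraries and 30.6, 19.8, 5.89 and 3.56 CPM per kb in control libraries. Folr2 rested on the fewest reads, 9 to 148 in immune stretched and 2 to 42 in immune control libraries.

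Within the immune fraction, the comparison of stretched with control skin asks whether these macrophage genes differ 6 h after stretch. None of the 9 members passed in edgeR's quasi-likelihood test. Of the 14183 genes tested none was called either (0%), the smallest Benjamini-Hochberg adjusted p was 0.134, and 17.4% had an unadjusted p under 0.05. Of the members 8 had a positive and 1 a negative log2 fold change, where 48.7% of all genes tested were positive. The members had a median of 0.59 beside -0.02 over all genes tested, and 2 had an unadjusted p under 0.05. Several members followed the same order of libraries, as given below, so their signs are not separate observations. DESeq2 and limma-voom with quality weights each called 1 member, Cd68. Over all genes, the number called ran from 0 to 888 over the alternatives. The share of all genes called by either tool is not given here, so the Cd68 calls cannot be set against it. In bulk RNA, fewer cells of a type and less RNA of a gene per cell cannot be told apart.

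The 3 C1q chain genes are neighbours on chromosome 4 of GRCm38: C1qb (chr4:136880129-136886187), C1qc (chr4:136889804-136893065) and C1qa (chr4:136895917-136898803), all on the minus strand and all protein-coding. The gaps between them measure 3616 and 2851 bases, and the whole cluster 18675 bases. RefSeq promoter windows (GRCm38.p6, 250 bases before to 50 after the start) were on hand for C1qb and C1qc and not for C1qa. They are shown because C1qb and C1qc differed from C1qa in their share of reads, as given below. Capitals mark GAGGAA, the core of the motif read by the macrophage factor PU.1, or its reverse complement TTCCTC, and TGCTGA, the core of the site read by Maf factors, searched on both strands, with no overlap between the motifs. GAGGAA is in 28.3% and TGCTGA in 19.5% of 32851 such windows in mouse, so a match is no more than a description.
C1qb, chr4:136886151-136886450, minus strand: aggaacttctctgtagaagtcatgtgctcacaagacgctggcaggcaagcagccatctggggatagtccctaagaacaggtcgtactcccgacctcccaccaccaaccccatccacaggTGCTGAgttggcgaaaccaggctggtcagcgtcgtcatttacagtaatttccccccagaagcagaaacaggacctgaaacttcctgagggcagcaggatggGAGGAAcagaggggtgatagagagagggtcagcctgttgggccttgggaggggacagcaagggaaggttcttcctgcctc
C1qc, chr4:136892865-136893164, minus strand: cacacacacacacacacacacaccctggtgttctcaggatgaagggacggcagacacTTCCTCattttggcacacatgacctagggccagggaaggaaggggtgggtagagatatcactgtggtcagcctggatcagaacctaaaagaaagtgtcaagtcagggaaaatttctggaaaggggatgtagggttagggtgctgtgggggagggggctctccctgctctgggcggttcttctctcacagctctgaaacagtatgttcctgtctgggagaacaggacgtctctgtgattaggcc
The C1qb window holds 1 GAGGAA and 1 TGCTGA, and the C1qc window 1 GAGGAA on the other strand and no TGCTGA.

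C1qa measured 642, 131, 326 and 335 CPM in immune stretched 1, 2, 7 and 8, against 128, 102, 632 and 440 CPM in immune control 3, 4, 5 and 6. C1qb measured 1748, 457, 948 and 849 CPM in the same stretched libraries, against 244, 153, 1054 and 815 CPM in the control libraries. C1qc measured 951, 193, 538 and 454 CPM in the stretched libraries, against 151, 108, 720.5 and 453 CPM in the control libraries. For each chain stretched 1 was the highest stretched library and stretched 2 the lowest, control 5 the highest control library and control 4 the lowest, and the groups overlapped. The log2 fold change of stretched over control was 0.14 ± 0.63 for C1qa (adjusted p = 0.926), 0.82 ± 0.63 for C1qb (adjusted p = 0.506) and 0.58 ± 0.64 for C1qc (adjusted p = 0.650) in edgeR's quasi-likelihood test. The sign for C1qa turned negative without stretched 1, without control 3 and without control 4, to -0.31 at its lowest. The spread between libraries was larger than these differences.

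**Figure D2:**
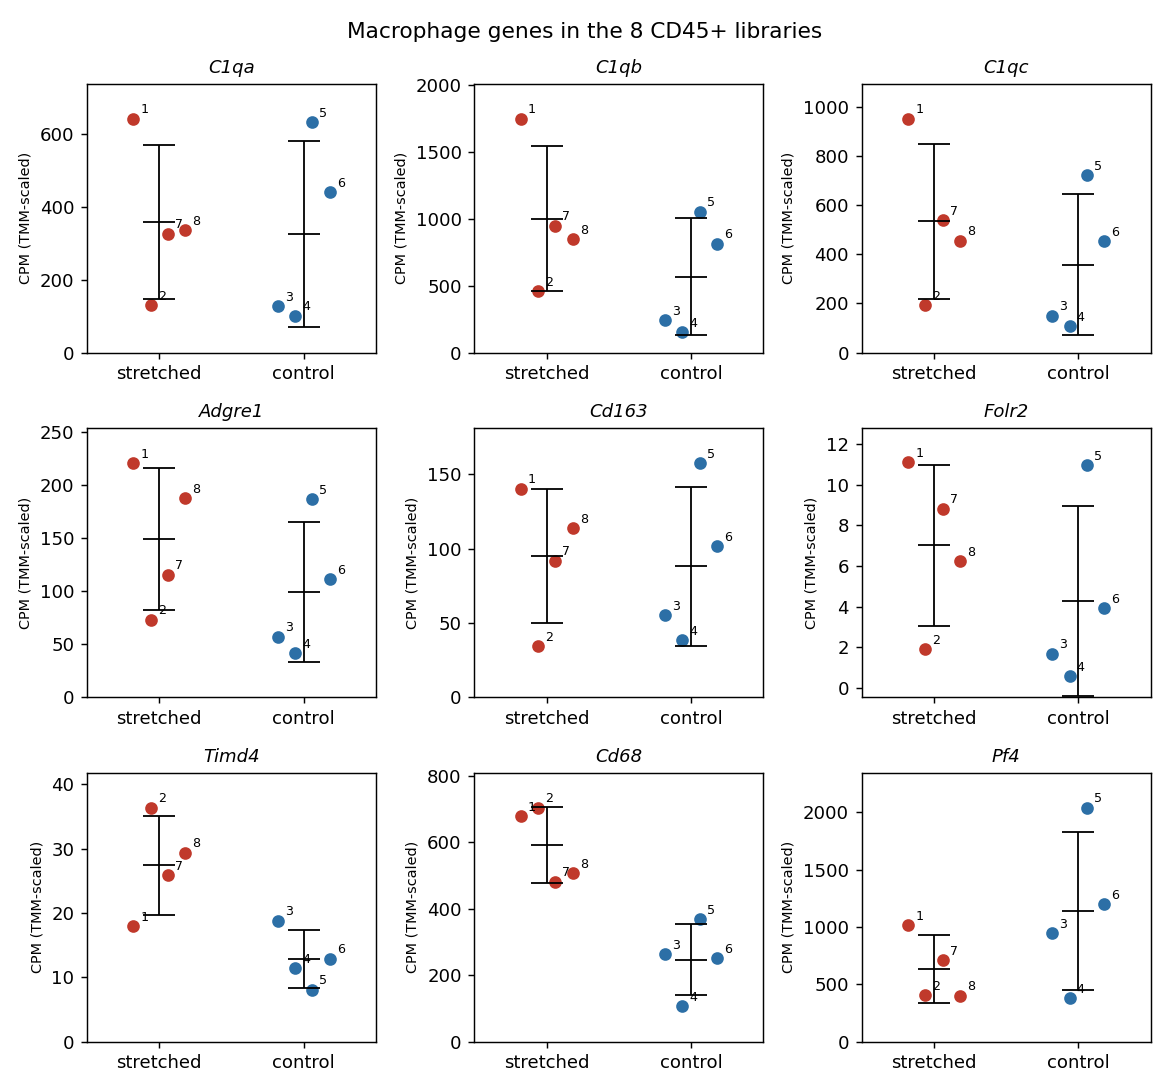
CPM of each of the 9 genes in the 4 immune stretched and the 4 immune control libraries; each numbered point is 1 library, the middle line its group mean and the error bar 1 SD. Only for Cd68 do all 4 stretched points, from 481.5 to 704 CPM, lie above all control points, from 107 to 368 CPM.

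Reads of the 3 chains in the same library can be set against each other, which removes library size. C1qb had 2.53 to 3.49 reads for each C1qa read in immune stretched libraries, against 1.51 to 1.91 in immune control libraries, a mean log2 ratio 0.74 higher (1.68-fold). C1qc had 1.36 to 1.65 reads for each C1qa read in stretched libraries, against 1.03 to 1.18 in control libraries, a mean log2 ratio 0.43 higher. The groups did not overlap for either ratio, and both kept their sign when any 1 library was left out (0.65 to 0.81 for C1qb to C1qa, 0.38 to 0.48 for C1qc to C1qa). C1qb to C1qc overlapped, at 1.76 to 2.37 reads in stretched and 1.42 to 1.80 in control libraries. These ratios were looked at after the levels were seen and carry no test. Of 14182 other tested genes, 54 (0.381%) had a ratio to C1qa that did not overlap between the groups. Of these, 22 were higher and 32 lower in stretched libraries, and C1qb and C1qc are 2 of the 22. C1qa ran from 102 to 642 CPM over these libraries, and C1qb and C1qc shared its highest and lowest libraries. The share over all genes is therefore no chance rate for the chains. Transcript length, GC content and depth bias a read ratio, and depth differed between the groups without overlap; their part in it was not tested.

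**Figure D3:**
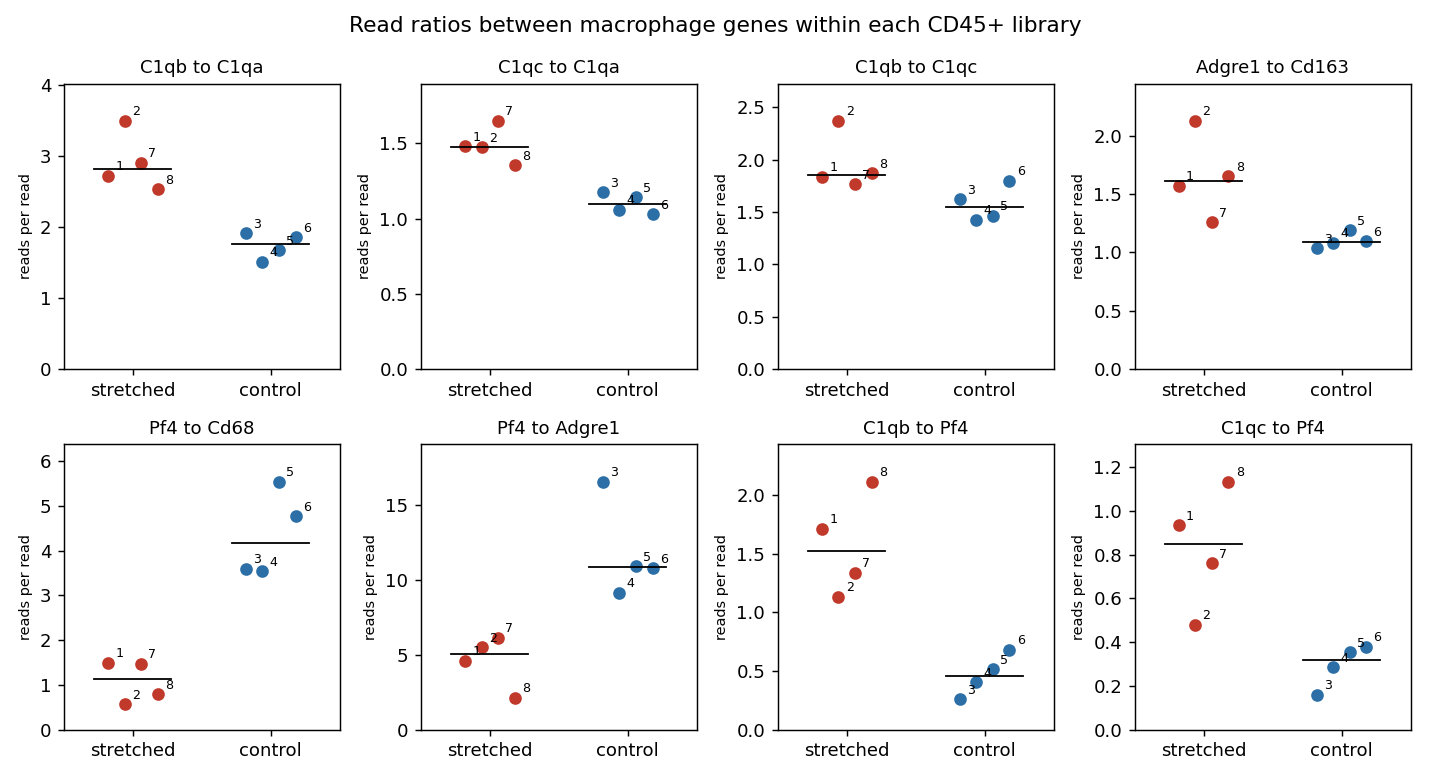
Reads of 1 member over reads of another within each immune library, for the 7 pairs whose groups do not overlap and for C1qb to C1qc, whose groups do; each point is 1 library, numbered as by the submitters, and the line is the group median. The ratio of C1qb to C1qa lies at 2.53 to 3.49 in the 4 stretched libraries and at 1.51 to 1.91 in the 4 control libraries.

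Among the receptors, Adgre1 measured 221, 73.3, 116 and 188 CPM in immune stretched 1, 2, 7 and 8, against 57.1, 41.4, 187 and 111 CPM in immune control 3, 4, 5 and 6. Cd163 measured 140.4, 34.4, 92.0 and 114 CPM in these stretched libraries, against 55.2, 38.2, 157 and 102 CPM in the control libraries. Both followed the order seen for C1q, with stretched 1 and control 5 high, stretched 2 and control 4 low, and the groups overlapping. The log2 fold change was 0.59 ± 0.50 for Adgre1 (adjusted p = 0.544) and 0.11 ± 0.50 for Cd163 (adjusted p = 0.925) in edgeR's quasi-likelihood test. The sign for Cd163 turned without stretched 1, without control 3 and without control 4. Adgre1 had 1.26 to 2.13 reads for each Cd163 read in stretched libraries, against 1.03 to 1.19 in control libraries, a mean log2 ratio 0.56 higher and 0.43 to 0.69 with any 1 library left out. A ratio to Cd163 without overlap was found for 1.09% of genes, which is no chance rate for Adgre1, since both followed the same order. Adgre1 lies at chr17:57358691-57483527 and Cd163 at chr6:124304656-124330527, each on the plus strand.

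Folr2 measured 11.1, 1.91, 8.82 and 6.23 CPM in immune stretched 1, 2, 7 and 8, against 1.69, 0.571, 10.9 and 3.93 CPM in immune control 3, 4, 5 and 6. It was the lowest member and again followed the order of C1q, and control 4 rested on 2 reads. Its log2 fold change was 0.73 ± 0.79 (adjusted p = 0.643 in edgeR's quasi-likelihood test), and it was 1.70 without control 5 and 0.38 without control 4. The gene lies at chr7:101839988-101857194 on the minus strand, and annotated genes of the opposite strand overlap it, so with no strand setting given in the sources used here some of its few reads may be theirs.

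Timd4 had the other order. It measured 17.97, 36.3, 25.9 and 29.4 CPM in immune stretched 1, 2, 7 and 8, against 18.8, 11.4, 8.08 and 12.9 CPM in immune control 3, 4, 5 and 6. Of these 4 stretched libraries 3 lay above every control library, and 15 of the 16 pairs of a stretched and a control library were higher in the stretched one. Stretched 2, lowest for C1q and Cd163, was highest for Timd4, and control 5, highest for C1q, was lowest. The log2 fold change was 1.09 ± 0.33 (unadjusted p = 0.00750, adjusted p = 0.185 in edgeR's quasi-likelihood test). DESeq2 gave an adjusted p of 0.0551 and limma-voom 0.0611, and over the 17 alternatives run the adjusted p lay between 0.0551 and 0.449. Timd4 lies at chr11:46810800-46844332 on the plus strand.

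Cd68 measured 679, 704, 481.5 and 507 CPM in immune stretched 1, 2, 7 and 8, against 262, 107, 368 and 251 CPM in immune control 3, 4, 5 and 6. It is the only member whose stretched libraries all lay above its control libraries, on the TMM scale and on library totals alike. Groups did not overlap for 11.9% of all genes tested, 6.56% being higher in stretched libraries, and among the 9 members Cd68 was the 1 that did so. The immune stretched group averaged 593 ± 115 CPM and the immune control group 247 ± 107 CPM (SD, n = 4 each). The log2 fold change was 1.26 ± 0.38 (unadjusted p = 0.00714, adjusted p = 0.183 in edgeR's quasi-likelihood test). DESeq2 gave 1.24 with an adjusted p of 0.0241 and limma-voom 1.14 with 0.0408, so the call depended on the tool. With any 1 library left out the log2 fold change ran from 0.997 to 1.51, and the adjusted p from 0.139 to 0.435.

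Cd68 lies at chr11:69664213-69666153 on the minus strand, and its RefSeq promoter window (GRCm38.p6) is shown because it is the member with the clearest separation of groups; capitals mark GAGGAA or TTCCTC.
Cd68, chr11:69666121-69666420, minus strand: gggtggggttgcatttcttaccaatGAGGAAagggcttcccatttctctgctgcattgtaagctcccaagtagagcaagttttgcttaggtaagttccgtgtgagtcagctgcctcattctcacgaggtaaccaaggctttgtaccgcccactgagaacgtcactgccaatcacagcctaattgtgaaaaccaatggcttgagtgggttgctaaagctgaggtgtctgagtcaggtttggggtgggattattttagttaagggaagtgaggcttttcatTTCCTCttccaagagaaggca
The window holds the PU.1 core 2 times. Spi1, the gene of PU.1, had a log2 fold change of 1.41 ± 0.45 in the immune fraction (adjusted p = 0.195 in edgeR's quasi-likelihood test), which did not pass. Beside Cd68, neutrophil genes summed to 147 to 33342 CPM of the library total in immune stretched libraries and 480 to 8946 CPM in immune control libraries, and the 9 monocyte genes to 1436 to 4349 CPM in stretched and 1969 to 2555 CPM in control libraries. Cd68 was high in stretched 2, which held the most neutrophil reads, and also in stretched 1, whose neutrophil sum was 781 CPM. Dendritic cell genes (median log2 fold change 0.71 over 9) summed to 323 to 1248 CPM in stretched and 295 to 484 CPM in control libraries. Endothelial genes (8 of 8 negative, median -0.91) summed to 52.1 to 244 CPM in stretched and 115 to 570.2 CPM in control libraries, and keratinocyte genes (7 of 7 negative, median -1.33) to 48.6 to 775 CPM in stretched and 22.03 to 2088 CPM in control libraries. None of these genes was called, and the part of these cell types in the Cd68 values was not tested.

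Pf4 had the one negative log2 fold change of stretched over control among the 9 in the immune fraction. It measured 1018, 403, 708 and 401 CPM in immune stretched 1, 2, 7 and 8, against 944, 378, 2040.2 and 1197 CPM in immune control 3, 4, 5 and 6. The groups overlapped, since control 4 was the lowest of all 8 libraries and stretched 1 lay above control 3. The immune stretched group averaged 633 ± 295 CPM and the immune control group 1139.6 ± 691 CPM (SD, n = 4 each). The log2 fold change was -0.85 ± 0.52 (adjusted p = 0.405 in edgeR's quasi-likelihood test). Pf4 lies at chr5:90772435-90773383 on the plus strand and its window (RefSeq, GRCm38.p6) is shown for comparison with Cd68, from which it parted most in read ratios; capitals mark TTCCTC, the PU.1 core on the other strand.
Pf4, chr5:90772185-90772484, plus strand: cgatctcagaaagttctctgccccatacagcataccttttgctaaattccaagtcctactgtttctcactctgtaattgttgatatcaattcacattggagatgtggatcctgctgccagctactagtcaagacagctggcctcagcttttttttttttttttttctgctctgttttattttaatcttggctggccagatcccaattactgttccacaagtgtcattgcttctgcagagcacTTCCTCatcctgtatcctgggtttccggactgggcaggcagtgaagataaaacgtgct
Platelets are the best known source of Pf4. Ppbp, another platelet chemokine, averaged 6.32 ± 8.26 CPM in immune stretched and 3.42 ± 1.93 CPM in immune control libraries (SD, n = 4 each). The 12 platelet genes summed to 35.1 to 63.4 CPM of the library total in stretched and 26.5 to 98.7 CPM in control libraries, and Gp1bb and Gp6 had no read in any stretched library. The part of platelets in the Pf4 values was not tested. Itga2b, counted among them, averaged 17.99 ± 6.85 CPM in immune stretched and 16.6 ± 7.69 CPM in immune control libraries, against 38.7 ± 12.2 CPM in stromal stretched and 58.3 ± 16.8 CPM in stromal control libraries.

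Pf4 parted from other members in 4 of the 7 read ratios that did not overlap, of 36 pairs. It had 0.573 to 1.5003 reads for each Cd68 read in immune stretched libraries, against 3.54 to 5.54 in immune control libraries, a difference in mean log2 ratio of -2.10, and of -2.29 to -1.83 with any 1 library left out. It had 2.13 to 6.12 reads for each Adgre1 read in stretched libraries, against 9.14 to 16.5 in control libraries. C1qb had 1.13 to 2.12 reads for each Pf4 read in stretched libraries, against 0.259 to 0.681 in control libraries, and C1qc had 0.478 to 1.13 in stretched libraries, against 0.160 to 0.378 in control libraries. Ratios to Pf4 without overlap were found for 5.76% of genes, ratios to C1qb for 2.88%, to C1qc for 0.874%, to Adgre1 for 2.51% and to Cd68 for 41%, so that a ratio to Cd68 separates the groups for many genes. No ratio of another member to Folr2 or Timd4 separated the groups, although a ratio to Folr2 did so for 0.458% and a ratio to Timd4 for 26.1% of genes. As with the C1q chains, these ratios were chosen after the values were seen and carry no test, and the shares over all genes are no chance rates.

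**Figure D4:**
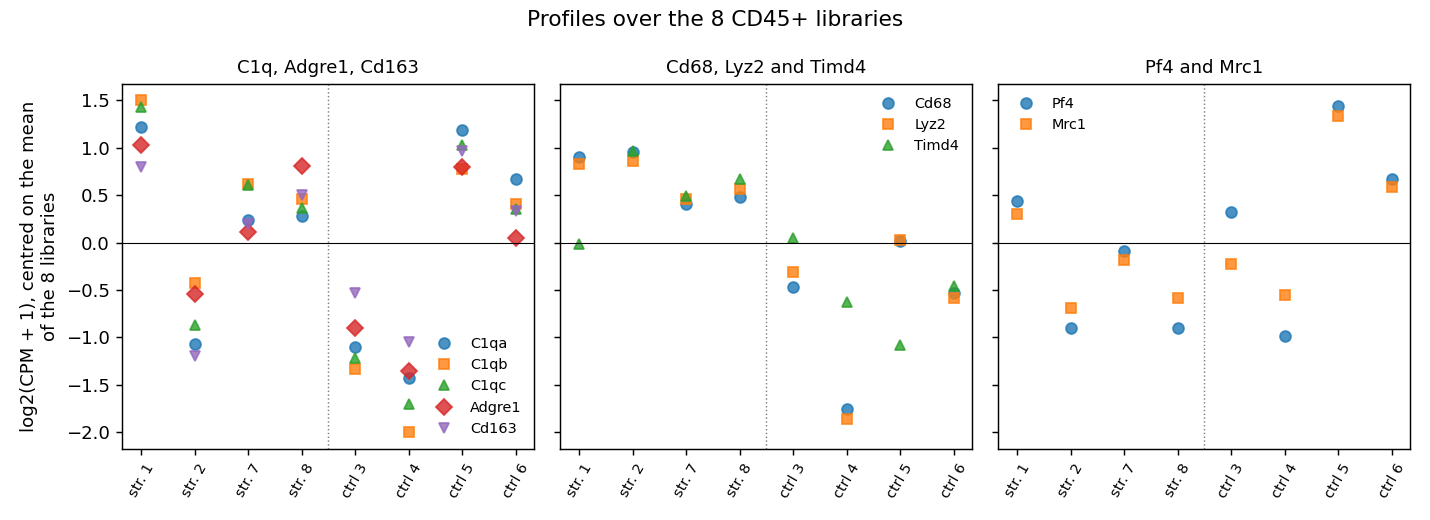
Log2(CPM + 1) of 8 members and of Lyz2 and Mrc1 in the 8 immune libraries, stretched on the left and control on the right of the dotted line, each gene centred on its own mean over these libraries. C1qa, C1qb, C1qc, Adgre1 and Cd163 are high in stretched 1 and control 5, while Timd4 is highest in stretched 2 and lowest in control 5.

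The likeness of profiles was measured as the root mean square difference of log2(CPM + 1) over the 8 immune libraries, each gene centred on its mean. To the mean of the 3 C1q chains, the nearest of 8947 genes were Tmem37 (0.260), Lacc1 (0.303), Atp13a2 (0.342), the member Adgre1 (0.348) and Cbr2 (0.377). Cd163 ranked 10 at 0.439, Cd68 ranked 895, Pf4 1007 and Timd4 6963. To Cd163 the nearest of 8949 genes were Atp13a2 (0.309), Kmt5c (0.323), Cln6 (0.324), Clec10a (0.324), a lectin of dermal macrophages and dendritic cells, and Serpinb8 (0.327), with C1qa at rank 6 and Adgre1 at rank 7. For Cd68 and Pf4, looked at after these values were seen, the nearest were Lyz2 (0.0870), the lysozyme of myeloid cells, for Cd68, and Mrc1 (0.292), the mannose receptor of tissue macrophages, for Pf4. The 8 libraries share the sort and differ in treatment and depth, which also enter these distances.

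In the stromal fraction all 9 genes were low, under 14 CPM in every library, and 7 of 9 could be tested for stretch. None was called and 0 had an unadjusted p under 0.05, while 800 of 16074 genes (4.98%) were called in edgeR's quasi-likelihood test. The log2 fold change of stretched over control was -0.95 ± 0.56 for C1qa (adjusted p = 0.306), -0.32 ± 0.70 for C1qb (adjusted p = 0.808), -0.50 ± 0.60 for C1qc (adjusted p = 0.636), -0.57 ± 0.59 for Pf4 (adjusted p = 0.574), 0.54 ± 0.82 for Adgre1 (adjusted p = 0.716), 0.41 ± 0.78 for Cd163 (adjusted p = 0.770) and 0.22 ± 0.43 for Cd68 (adjusted p = 0.785), by edgeR's quasi-likelihood test. Stromal stretched 6 was the highest stretched library for most members: C1qb measured 1.86, 13.8, 1.79 and 2.05 CPM in stromal stretched 5 to 8, against 4.73, 5.12, 2.58 and 11.7 CPM in stromal control 1 to 4. Without stromal stretched 7 and 8, the log2 fold change of C1qb was 0.36 and that of C1qc 0.03, the opposite sign. Without stromal stretched 6, that of C1qa was -1.71 (adjusted p = 0.0787) and that of Pf4 -1.60 (adjusted p = 0.0676, edgeR's quasi-likelihood test), the lowest adjusted p of either gene among the alternatives run, the highest being 0.773 for C1qa and 0.997 for Pf4.

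Whether the stretch effect of a member differed between fractions was tested by the interaction of the 2 factors over all 16 libraries. None of the 9 members was called and 0 had an unadjusted p under 0.05, and none of the 18295 genes tested was (0%), while 23.1% had an unadjusted p under 0.05. The difference of the effects, immune minus stromal on the log2 scale, was 1.25 ± 0.92 for C1qa, 1.29 ± 1.05 for C1qb, 1.24 ± 0.96 for C1qc and 1.19 ± 0.60 for Cd68 (adjusted p = 0.244, the smallest of the members, in edgeR's quasi-likelihood test). It was 0.90 ± 0.87 for Timd4, 0.80 ± 1.57 for Folr2, 0.23 ± 1.03 for Adgre1, -0.11 ± 0.92 for Cd163 and -0.12 ± 0.85 for Pf4.

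**Figure D5:**
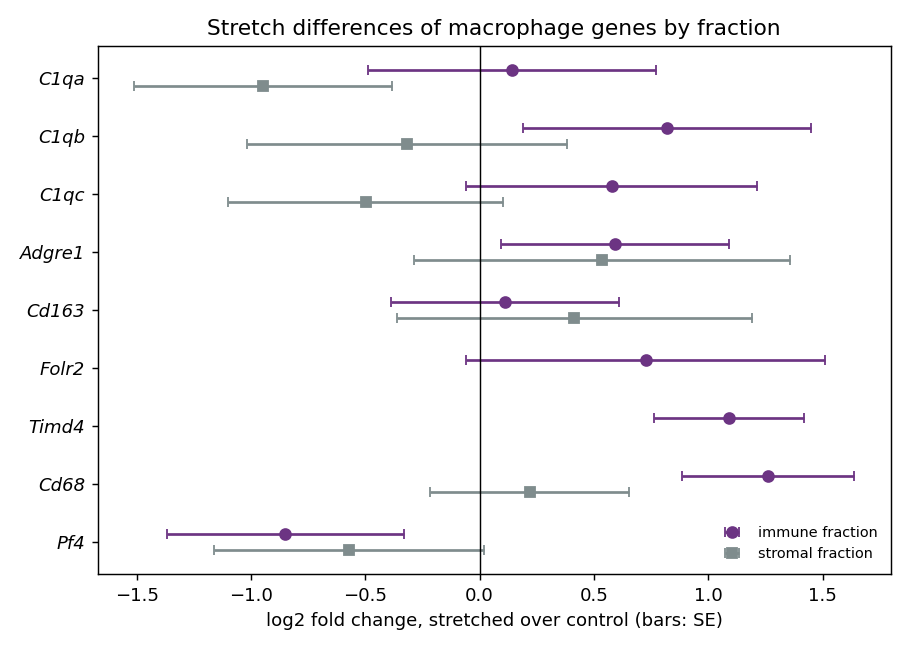
Log2 fold change of stretched over control for the 9 genes in the immune and the stromal fraction, with bars of 1 SE. Cd68 (1.26) and Timd4 (1.09) have the highest values in the immune fraction and Pf4 (-0.85) the lowest, and no value passes the adjusted threshold in edgeR's test; Folr2 and Timd4 were not tested in the stromal fraction.

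Genes that work with these members or belong to the same cells were read as lists. In the immune fraction no gene of the lists named here was called. Of 20 further macrophage genes 19 were tested, 9 positive and 10 negative, with a median log2 fold change of -0.04 between stretched and control skin. The smallest p was that of Selenop, a selenium carrier, at 1.72 ± 0.60 (adjusted p = 0.214), and Csf1r, the receptor for macrophage colony-stimulating factor, stood at 0.71 ± 0.41 (adjusted p = 0.379, edgeR's quasi-likelihood test). These 20 genes also summed to 1714.5 to 2615.7 CPM of the library total in stromal stretched and 1419.2 to 3708.7 CPM in stromal control libraries. The part of stromal cells in the immune values of this list, Selenop among them, was not tested. Of 10 macrophage transcription factors, Maf stood at -1.23 ± 0.44 and Spic at 0.99 ± 0.43. Of the 11 classical complement partners of C1q, 8 were positive (median 0.49), among them Serping1, the C1 inhibitor, at 1.77 ± 0.66 and C1ra, a C1r protease gene, at 1.23 ± 0.54. Fibroblast markers, 8 of 8 positive with a median of 0.80, summed to 1368 to 9688 CPM of the library total in immune stretched and 1436 to 7220 CPM in immune control libraries, and their part in the complement values was not tested. Of 16 lysosomal genes 14 were positive (median 0.64), with Lamp1, a lysosomal membrane protein gene, at 1.33 ± 0.31 (adjusted p = 0.142 in edgeR's quasi-likelihood test).

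For genes of the uptake of dying cells, 15 of 18 were tested with a median of 0.16, Itgb5 at 1.58 ± 0.53 and Dock1 at -1.08 ± 0.37. For haem and iron handling, which follows Cd163, 12 of 13 were tested with a median of 0.66, the transferrin receptor Tfrc at -0.996 ± 0.273 and Slc48a1, a haem transporter, at 0.91 ± 0.35. For folate uptake and use, which follows Folr2, 8 of 9 were tested with a median of -0.08. In the stromal fraction Maf fell by 1.30 ± 0.25 on the log2 scale (adjusted p = 0.0424) and Blvrb, a biliverdin reductase gene, by 1.11 ± 0.21 (adjusted p = 0.0424, edgeR's quasi-likelihood test). Of the 8 folate genes tested there, 1 was called higher. None of these calls held without stromal stretched 7, stromal stretched 8, stromal control 1, stromal control 2 or stromal control 3. With any of these libraries left out, 0 genes were called. Between fractions, most partners of C1q stood on the stromal side. Of the 11 partners, 1 was called higher and 7 lower in immune than in stromal cells of stretched skin, and 1 higher and 8 lower in control skin, where 25.1% of all tested genes in stretched and 22.8% in control skin were called lower. The partner genes called lower included C1ra, at -2.92 ± 0.50 in stretched skin (adjusted p = 0.00124) and -4.09 ± 0.45 in control skin (adjusted p = 4.25e-05), and C3, the central complement protein, at -3.32 ± 0.47 in stretched skin (adjusted p = 0.000420) and -3.48 ± 0.34 in control skin (adjusted p = 2.02e-05, edgeR's quasi-likelihood test). The single partner called higher was Cd93, a receptor of myeloid and endothelial cells.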

How the data were processed

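RNA of CD45+ and CD45- cells of mouse skin was sequenced with a SMART-Seq mRNA kit and Nextera XT libraries, per the labels' protocols. Per the submitters' processing notes, FastQC 0.11.9, STAR and the mm10 build were used. Which counter, strand setting and annotation were used is not given in the sources used here. As values, the authors deposited 1 table of raw read counts for 55487 gene IDs, of which 55394 matched GENCODE M21 (GRCm38). 107 symbols belong to several IDs.

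Counts were analysed with edgeR 4.0.16 in R 4.3.3: TMM factors, filterByExpr (minimum count 10, minimum total 15), the quasi-likelihood F test and Benjamini-Hochberg adjustment over all genes tested, with calls at an adjusted p under 0.05. The stretch comparisons used the 8 libraries of a fraction, the fraction comparisons the 8 of a treatment, and the interaction all 16. SE is the log2 fold change over the square root of F. Standard deviations are over 4 libraries. Alternatives were RLE factors, DESeq2 1.42.0, limma 3.58.1 voom, other filters, 1 fit of all libraries, length and GC offsets, thinning, libraries left out and a replicate block. Scripts were tested on simulated data. Libraries of a group differed by more than counting noise, so none was merged. The members and gene lists were chosen with earlier results of these data known. Named genes are the members, up to 4 genes per list with the smallest p, and the 5 nearest profiles to C1q and to Cd163. Some genes that this rule names are not reported here.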

Additional observations from a re-analysis of the deposited data

Results flagged for a closer look

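In groups of 4 libraries, the highest or lowest value was set against the spread of the other 3. Of 36 groups (9 members in 4 groups of libraries) 4 held a library far from the rest. Chance alone flags about 1 group in 20 if values are normally distributed, which values from few reads may not be. Stromal stretched 6 was the highest of its group for Adgre1 (1.65 CPM), C1qb (13.8 CPM) and C1qc (6.99 CPM). Stromal control 1 was the highest of its group for Timd4 (0.381 CPM), on 5 reads. All 4 values lie in the stromal fraction.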

How the results depend on the processing

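Of the members, 0 were called for stretch in the immune fraction with any 1 library left out and 1 (Cd68) by DESeq2 and by limma-voom. In the stromal fraction and in the interaction 0 were called under every alternative run. For the fractions 8 to 9 were called in stretched and 7 to 9 in control skin. Over all genes, alternatives called 0 to 888 genes for stretch in the immune fraction (0 in edgeR's test, 2467 at an unadjusted p under 0.05), 0 to 3599 in the stromal fraction (800), 5402 to 9892 for the fractions in stretched skin (8380), 3642 to 9804 in control skin (7484) and 0 to 3924 in the interaction (0). The causes were not tested.

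The following log2 values turned sign unless stated otherwise. With 1 library left out, the immune stretch value ran from -0.15 to 0.53 for Cd163 and -0.31 to 0.67 for C1qa, which was -0.0352 with length and GC offsets. With no change of sign it ran from 0.32 to 1.08 for Adgre1, 0.39 to 1.29 for C1qb, 0.13 to 1.16 for C1qc and 0.38 to 1.70 for Folr2. In the stromal fraction it ran from -0.39 to 0.97 for Adgre1, -0.13 to 0.70 for Cd68, -0.17 to 1.12 for Cd163, -1.67 to 0.24 for C1qb and -1.42 to 0.0153 for C1qc. There limma-voom gave -0.96 for Cd163, and leaving out stromal stretched 7 and 8 gave 0.36 for C1qb and 0.0311 for C1qc. In the interaction it ran from -0.41 to 1.17 for Adgre1, -1.01 to 0.48 for Cd163, -0.14 to 1.77 for Folr2, -0.45 to 0.92 for Pf4 and -0.10 to 1.44 for Timd4. There limma-voom gave -0.89 for Adgre1, 1.18 for Cd163 and 0.0605 for Pf4, leaving out stromal stretched 7 and 8 gave -0.28 for Adgre1 and 0.0064 for Cd163, and thinning gave -0.13 for Adgre1, 0.43 for Cd163 and -0.49 for Timd4. Over all alternatives and with no change of sign, the interaction ran from 0.73 to 3.11 for C1qa, 0.53 to 4.05 for C1qb and 0.52 to 3.65 for C1qc, all highest with the replicate block below. Few stromal reads limit Folr2 and Timd4.

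In the sample titles, immune and stromal libraries share the numbers 7 and 8 in stretched and 3 and 4 in control skin. Correlations of the deviations were -0.03 and 0.09 in stretched and -0.08 and -0.06 in control skin. They were not set against unmatched pairs, so they cannot decide whether a shared number pairs the libraries. With the number as a replicate block, 9 members were called between fractions in stretched and 8 in control skin, and 0 in the interaction, where Cd163 was 0.58, Pf4 1.63, C1qa 3.11, C1qb 4.05, C1qc 3.65 and Folr2 4.45. In the interaction this block also joined libraries of opposite treatment. It joined immune stretched 1 and 2 to stromal control 1 and 2, and immune control 5 and 6 to stromal stretched 5 and 6. Within a treatment only the numbers 3, 4, 7 and 8 are shared, so the block values rest largely on these libraries. They include immune control 4 and stromal stretched 7 and 8, which stood apart by their receptor reads. For stretch within a fraction no paired analysis was possible because the groups share no number.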
